A study of Homo sapiens with 4 samples.

Results

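The SR proteins and the heterogeneous nuclear ribonucleoproteins (hnRNPs) are the main RNA-binding proteins that choose exons during pre-mRNA splicing, and the mRNA levels of 42 of their genes were followed here, of 58243 genes in the files. The members were matched from gene symbol to the Ensembl identifier of the protein-coding gene, and pseudogenes were left out. The genes were 13 SR proteins (SRSF1 to SRSF7, SRSF9 to SRSF12, TRA2A, and TRA2B), 3 SR-related proteins (SRRM1, SRRM2, and SON), 6 kinases of SR proteins (CLK1 to CLK4, SRPK1, and SRPK2), 7 hnRNPs of the A/B and D families, 4 of the F/H family, and 9 other hnRNPs. mRNA was measured by RNA-seq in 293T cells, a human embryonic kidney line that carries the SV40 large T antigen. A negative control RNA or a mimic of miR-1, miR-122, or miR-124, a synthetic RNA that acts as the mature miRNA, was transfected, and total RNA was taken after 48 h by the labels, although the study's methods state a shorter time. Each condition was 1 library, so no comparison has a replicate check and no p-value is given. The comparison asks how an endogenous mRNA responds to a miRNA that the cells were given from outside.

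SR proteins carry RNA recognition motifs and a domain rich in arginine and serine, and they bind exonic enhancers and recruit the spliceosome. CLK and SRPK kinases phosphorylate that domain, which controls where SR proteins reside and when they act. hnRNPs coat nascent transcripts and often silence splice sites, and many SR and hnRNP genes limit their own mRNA by splicing in a poison exon that sends the transcript to nonsense-mediated decay (NMD).

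The miRNAs pair with mRNAs through the seed, bases 2 to 8, and the sequences of miR-1 and miR-122 are shown because the site search below uses them. The seed is in capitals, and both are from RefSeq on GRCh38.p14, where miR-1 has a copy at chr20:62554351-62554372 on the plus strand and miR-122 lies at chr18:58451088-58451109 on the plus strand.
hsa-miR-1-3p: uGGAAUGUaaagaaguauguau
hsa-miR-122-5p: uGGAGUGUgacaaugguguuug
The longest annotated 3′ UTR was searched on the mRNA strand for the 8mer ACATTCCA of miR-1 and the 8mer ACACTCCA of miR-122. The 7mer-m8 is the same word without its last base, the 7mer-A1 without its first base, and the 6mer without both. Each gene was placed in the longest class that it holds. An 8mer for miR-1 was found in 4 members, SRSF9, TRA2B, HNRNPA3, and HNRNPU, which is 9.52% of the 42 against 5.98% of the 11190 tested genes with an annotated 3′ UTR. An 8mer for miR-122 was found in 3 members, SRSF7, CLK3, and HNRNPU, which is 7.14% against 3.68%. These 7 sites are printed below in the 5′ to 3′ direction with the 8 matching bases in capitals, on GRCh38 with the 3′ UTRs of GENCODE release 44, since the values of their genes are compared later.
SRSF9, miR-1 site: tgtgctcagaatctACATTCCA
TRA2B, miR-1 site: cagcaagtgacaatACATTCCA
HNRNPA3, miR-1 site: aataaatgtaacagACATTCCA
HNRNPU, miR-1 site: ggctaactttttaaACATTCCA
SRSF7, miR-122 site: agctatatttagcaACACTCCA
CLK3, miR-122 site: aaaaggaaaaactaACACTCCA
HNRNPU, miR-122 site: gtactgctcatattACACTCCA
The miR-1 sites lie at chr12:120461947-120461968 (minus strand, SRSF9), chr3:185916966-185916987 (minus, TRA2B), chr2:177221132-177221153 (plus, HNRNPA3), and chr1:244854357-244854378 (minus, HNRNPU). The miR-122 sites lie at chr2:38744075-38744096 (minus, SRSF7), chr15:74637565-74637586 (plus, CLK3), and chr1:244853968-244853989 (minus, HNRNPU). HNRNPU was the 1 member with an 8mer for both miRNAs, and its 2 sites start at bases 86 and 475 of a 3′ UTR of 4153 bases. Sites of miR-124 were not analysed here.

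All values are the deposited FPKM, fragments per kilobase of gene length and per 1000000 reads, and whole reads were recovered from them. Each library is named by its RNA, and that of control RNA had 6624306 reads by this measure, that of miR-1 9452232, that of miR-122 5887055, and that of miR-124 6465436. All 42 members had at least 200 reads over the 4 libraries, the minimum for a gene to be tested, and the lowest, CLK4, had 467. Ratios are given with 95% counting intervals, which cover the counting of reads only and compare libraries, not conditions. A gene was called past the limit when its ratio to control RNA was 0.8 or less (lower) or the inverse of 0.8 or more (higher), which is 0.32 on the log2 scale. VIM, the vimentin gene that 293T cells express, was at 58.0, 68.3, 66.3, and 58.3 FPKM (in the order control RNA, miR-1, miR-122, and miR-124), while the leukocyte gene CD3E was listed at 0 in each library and liver ALB had at most 2 reads.

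HNRNPA2B1 was the most abundant member and SRSF12 the least abundant. Levels between genes were compared as reads per kilobase of the canonical transcript and per 1000000 reads, since the length behind the FPKM includes introns. On this scale HNRNPA2B1, a nuclear protein that also sorts RNAs for transport, was at 377 in the control RNA library, and SRSF9 at 283. HNRNPK and HNRNPC, a poly(C)-binding protein and a binder of U-rich tracts, were at 244 and 223. HNRNPAB and HNRNPM followed at 203 and 199. These hnRNPs and SRSF9 formed the top of the order in the control RNA library. Reads assigned to pseudogenes were left out of this order. Those of HNRNPA1, itself at 169, amounted to 56.2% of its own reads, so its place is uncertain. At the lower end CLK4 was at 7.96 and SRSF12, an SR protein described as a splicing repressor, at 5.76. SRSF1 to SRSF7 lay between, from SRSF2 at 148 and SRSF5 at 108 to SRSF6 at 37.2. Neighbours in this order were often closer than their change between libraries, as for SRSF7 at 96.4 and SRSF3 at 97.3.

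**Figure D1:**
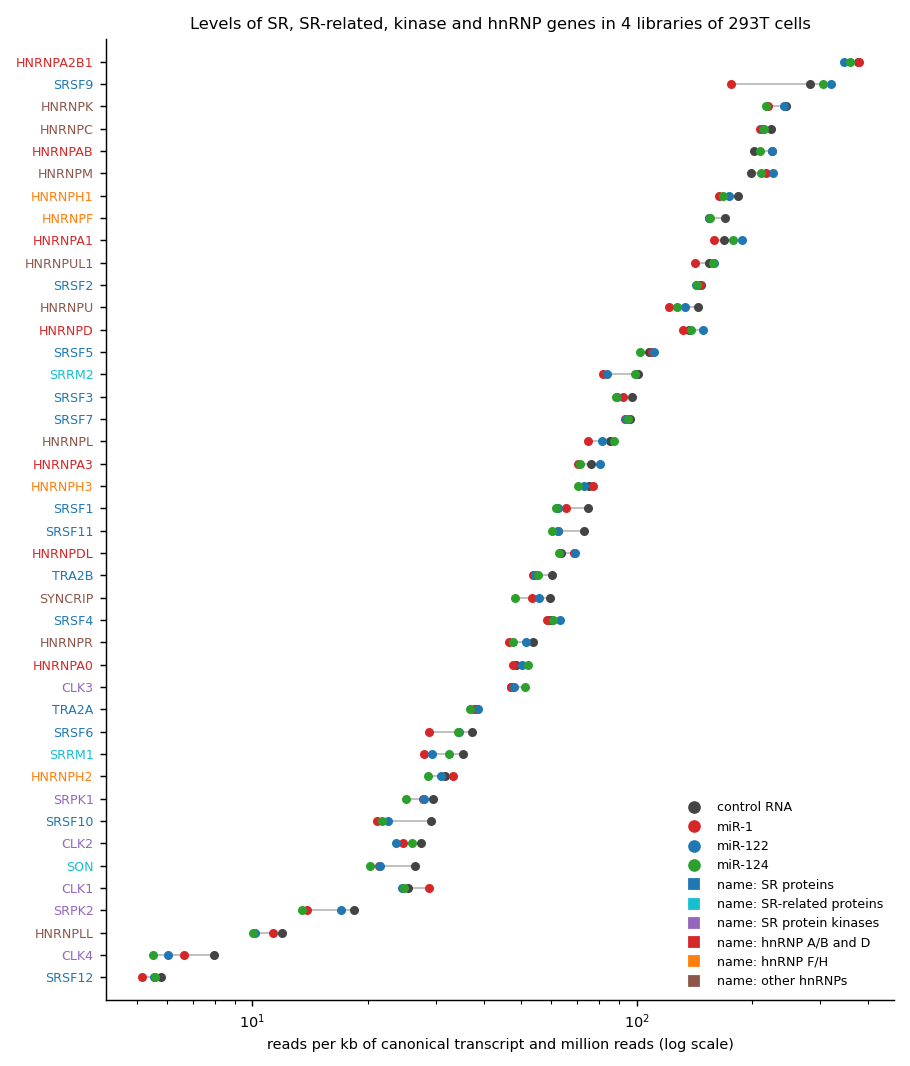
Level of each of the 42 genes in the 4 libraries, in reads per kilobase of the canonical transcript and per 1000000 reads on a log axis, 1 point a library, with gene names coloured by list. The points of most genes nearly coincide, and the widest gap among the abundant genes is that of SRSF9, at 177 in the miR-1 library and 283 to 321 in the other 3.

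The plot of levels by library shows that the members varied little. The highest library was a median of 1.14 times the lowest over the members, against 1.28 over the 12634 genes tested, and the lowest library was at 0.8 or less of the highest for 7 members (16.7%) and for 57.7% of genes. Among genes with at least 5000 reads over the 4 libraries, a limit chosen after the values were seen, the medians were 1.12 for 25 members and 1.20 for 1002 genes. The members together made up 1.40%, 1.28%, 1.35%, and 1.32% of the reads (control RNA, miR-1, miR-122, and miR-124).

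With miR-1, more members were below the control RNA library than above it, as were more of all genes, and SRSF9 was the lowest. The ratio to control RNA was below 1 for 34 of 42 members (81.0%) and for 57.1% of genes, with a median log2 ratio of -0.11 against -0.05 over the 12633 genes compared. A decrease past the limit was seen in 5 members (SRSF6, SRSF9, SRSF10, SRRM1, and SRPK2), and in 18.4% of all genes. No member was past the limit upward, against 7.39% of genes. The counting interval lay wholly below 1 for 22 members (24.5% of genes) and wholly above 1 for 3 members (15.5% of genes), HNRNPAB, HNRNPDL, and HNRNPM. Members had a median of 1754.5 reads in control RNA, against 272 for the protein-coding genes tested, and more reads give narrower intervals. The shares of intervals that leave 1 are therefore not a like comparison, here or with the other mimics. In these bulk libraries, fewer cells of a type and less RNA per cell cannot be told apart, and a gene-level value sums productive transcripts and those bound for NMD.

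With miR-122, the median log2 ratio was -0.06 against -0.02 over 12634 genes, and the ratio was below 1 for 29 members (69.0%) and for 53.6% of genes. With a trend in 3′ UTR composition, length, span, and reads subtracted (described further on), the median of the members was 0.01. SRSF10 and CLK4 were lower past the limit, 2 of 42 members against 12.3% of genes, and no member was higher past it, against 7.91%. The interval was wholly below 1 for 12 members (16.3% of genes) and wholly above 1 for 7 (13.1% of genes).

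With miR-124, SRSF10, SON, CLK4, and SRPK2 were lower past the limit, 4 of 42 members against 16.3% of genes. No member was higher past it, where 10.3% of genes were. The median log2 ratio was -0.09 against -0.05 over 12633 genes, and the ratio was below 1 for 32 members (76.2%) and for 56.4% of genes. With the same trend subtracted, the median of the members was 0.06. The interval was wholly below 1 for 19 members (21.8% of genes) and wholly above 1 for 4 (16.4% of genes). The 3 comparisons share the control RNA library, so a deviation of that library enters each of them.

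**Figure D2:**
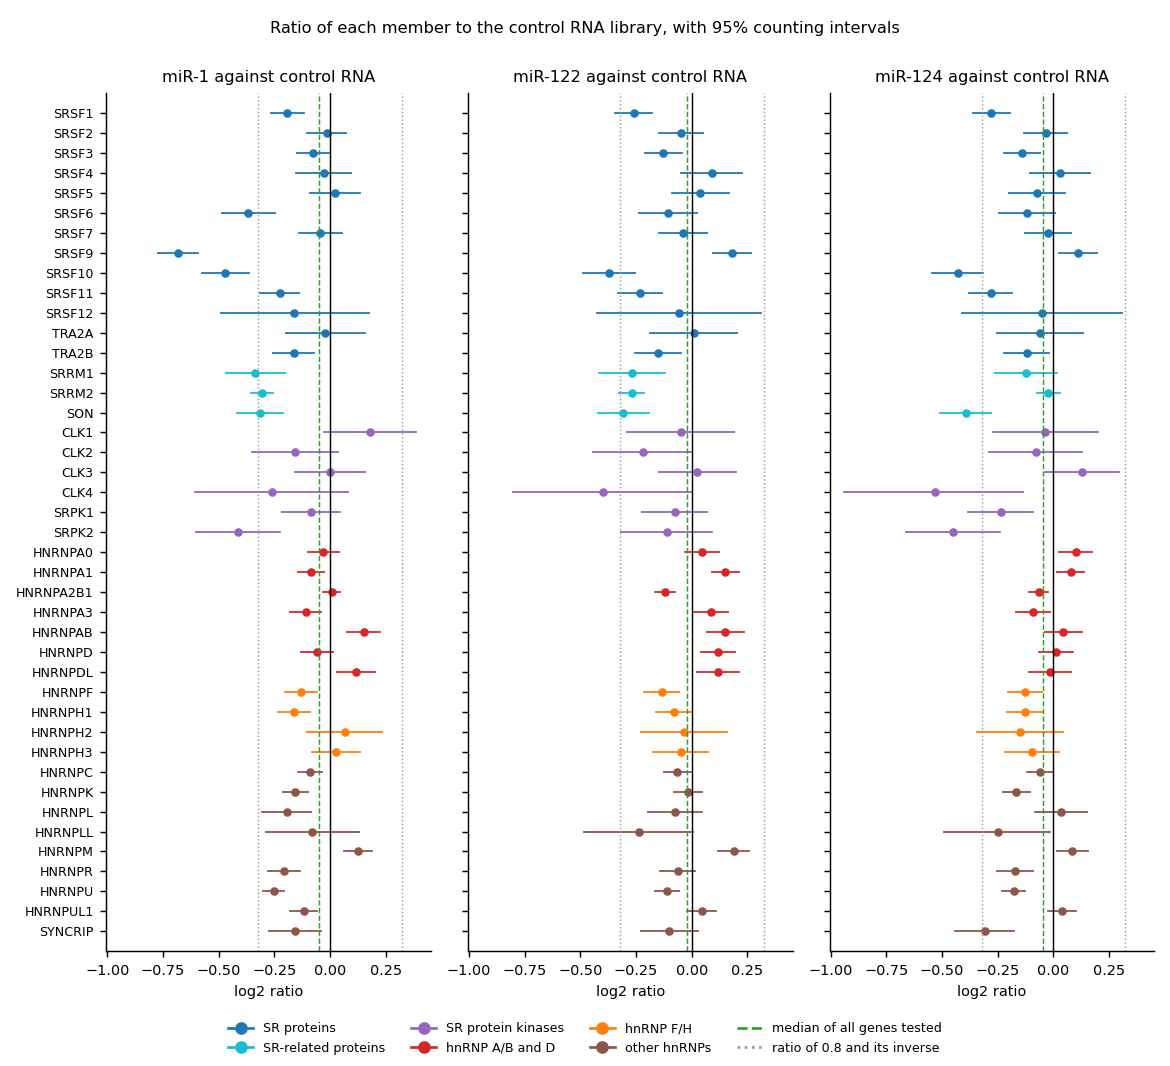
Log2 ratio of each member to control RNA, 1 panel a mimic, with points for 1 library against 1 library and lines for 95% counting intervals. Most points lie between the dotted lines at a ratio of 0.8 and its inverse, no point lies past the upper one, and SRSF9 with miR-1 at -0.68 is the farthest to the left.

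SRSF9 was the member that differed most between libraries. SRSF9 is a small SR protein that takes part in constitutive and alternative splicing, and its gene (ENSG00000111786) is annotated at chr12:120461672-120495946 on the minus strand. Its FPKM was 40.1 in control RNA, 25.03 in miR-1, 45.5 in miR-122, and 43.3 in miR-124, from 2159, 1922, 2174, and 2276 reads. The miR-1 library was the low one, and the other 3 lay close together. The ratio to control RNA was 0.624 (0.586 to 0.664) with miR-1, and with the other mimics it was 1.13 (1.07 to 1.20) and 1.08 (1.02 to 1.15). Set against the other mimics, which leaves the control RNA library out, miR-1 was at 0.551 (0.518 to 0.586) of miR-122 and at 0.578 (0.543 to 0.614) of miR-124. Of 12633 genes, 377 (2.98%) had a lower ratio than SRSF9 with miR-1, and of the 669 genes with a miR-1 8mer 74 did. Its 8mer, shown above, begins at base 65 of a 3′ UTR of 347 bases.

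A gene on the opposite strand moved with SRSF9. The 3′ end of GATC, which encodes a subunit of the mitochondrial glutamyl-tRNA amidotransferase, overlaps SRSF9 over 2078 bases from the plus strand, and the SRSF9 site lies within this overlap. GATC was at 13.3 FPKM in control RNA, 9.17 in miR-1, 15.0 in miR-122, and 14.4 in miR-124. Its ratio with miR-1 was 0.688 (0.640 to 0.739), while the ratio of DYNLL1, the dynein light chain gene that overlaps the upstream end of the annotation, was 1.06 (0.979 to 1.14). The length recovered for SRSF9 was 8125 bases, against an annotated span of 34274, so the counted gene may not have reached DYNLL1. The counting is not stated to use strand, and reads of SRSF9 and GATC then cannot be told apart in the overlap. How far reads of one gene enter the value of the other was not tested.

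SRSF10 was at 0.8 or less of control RNA with each mimic. This SR protein is dephosphorylated under heat shock and then represses splicing, and its gene (ENSG00000188529) lies at chr1:23964347-23980927 on the minus strand. Its FPKM was 13.9 in control RNA, 10.01 in miR-1, 10.7 in miR-122, and 10.3 in miR-124. The control RNA library was the high one, and the 3 mimics lay close together. The ratios were 0.722 (0.672 to 0.776), 0.774 (0.714 to 0.839), and 0.743 (0.686 to 0.804) in this order. Against the mean of the other 2 mimics the ratios were 0.952, 1.06, and 0.993. With the trend subtracted, the log2 ratio stayed past the limit with miR-1 (-0.35) but not with miR-122 (-0.24) or miR-124 (-0.20). Its longest 3′ UTR, of 6795 bases, held no miR-1 site and 2 sites of 7 bases for miR-122.

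SRSF6 was lower with miR-1. SRSF6, a regulator of exon choice in transcripts such as that of tau, is at chr20:43457893-43466046 on the plus strand (ENSG00000124193). Its FPKM was 25.7 in control RNA, 19.9 in miR-1, 23.8 in miR-122, and 23.6 in miR-124. The miR-1 library was lowest, and the other mimics lay between it and control RNA. The ratio was 0.776 (0.714 to 0.843) with miR-1, and the intervals with miR-122 (0.848 to 1.02) and miR-124 (0.843 to 1.01) included 1. Its log2 ratio with miR-1 was -0.30, within the limit, with the trend subtracted. SRSF6 holds a miR-1 6mer but no longer site.

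The other SR proteins stayed within the limit. SRSF1, the founding member and a splicing factor with oncogenic activity, was at 100.3 FPKM in control RNA, 87.9 in miR-1, 83.7 in miR-122, and 82.7 in miR-124. Its ratios were 0.876, 0.834, and 0.824, each with an interval below 1. SRSF11 was at 6.11, 5.22, 5.20, and 5.03 FPKM, with ratios of 0.855, 0.851, and 0.823. Both were highest in the control RNA library. SRSF3, which also couples splicing to mRNA export, was at 36.6, 34.7, 33.5, and 33.2 FPKM. SRSF7, its closest relative, was flat at 28.8, 27.9, 27.97, and 28.3 FPKM, and all 3 of its intervals included 1. SRSF2, a nuclear SR protein that also acts in transcription elongation, was at 85.5, 84.6, 82.6, and 83.4 FPKM, again with each interval including 1. SRSF4 and SRSF5 did not leave their intervals either, the former with ratios of 0.981, 1.06, and 1.02 and the latter with 1.02, 1.03, and 0.95. The low counts of SRSF12 (117 to 175 reads a library) left intervals as wide as 0.712 to 1.13 with miR-1, so a change of this size was not detectable at this depth. TRA2A, at 2.51, 2.47, 2.52, and 2.41 FPKM, and TRA2B, at 11.3, 10.1, 10.2, and 10.4 FPKM, are paralogs that bind GAA-rich enhancers. With miR-1, TRA2B, which holds an 8mer, was at 0.893 (0.837 to 0.952) of control RNA. TRA2A, which holds no site, was at 0.985 (0.872 to 1.11). These intervals overlapped.

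Over the 13 SR proteins, 12 (92.3%) were below control RNA in miR-1, 9 (69.2%) in miR-122, and 11 (84.6%) in miR-124, against the 57.1%, 53.6%, and 56.4% of all genes, and the median log2 ratios were -0.16, -0.06, and -0.07. Of these 13, 3 were lower past the limit with miR-1 (18.4% of all genes), and SRSF10 alone with miR-122 (12.3%) and with miR-124 (16.3%).

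Of the 3 SR-related proteins, large scaffolds of nuclear speckles, 1 was lower past the limit with miR-1 (SRRM1), none with miR-122, and 1 with miR-124 (SON). The shares of all genes were 18.4%, 12.3%, and 16.3%. The interval was below 1 for all 3 with miR-1 (24.5% of all genes) and with miR-122 (16.3%). SRRM1 (chr1:24631716-24673281, plus strand), a coactivator that joins SR proteins to the spliceosome, was at 3.18 FPKM in control RNA, 2.52 in miR-1, 2.64 in miR-122, and 2.92 in miR-124. Its ratio with miR-1 was 0.792 (0.723 to 0.869), and miR-124 was nearest to control RNA. The call of SRRM1 ended with the trend subtracted (log2 ratio -0.29). SRRM2, a core speckle protein, was at 45.1, 36.5, 37.4, and 44.3 FPKM, with ratios of 0.810 (0.783 to 0.839), 0.830 (0.798 to 0.863), and 0.984 (0.949 to 1.02). SRRM2 was thus low in the miR-1 and miR-122 libraries, and its miR-124 library was 1.19 (1.14 to 1.23) times that of miR-122. With the trend subtracted, SRRM2 came past the limit, at -0.45 with miR-1 and -0.36 with miR-122 on the log2 scale. SON (chr21:33543038-33577481, plus strand), which promotes splicing at weak sites, was at 6.39, 5.14, 5.16, and 4.86 FPKM, with ratios of 0.804, 0.808, and 0.761. SON was highest with control RNA and the 3 mimics were close, and its call with miR-124 ended with the trend subtracted (-0.25). On the opposite strand, DONSON and GART overlap SON over 17940 and 454 bases, and ELOB overlaps SRRM2 over 1125. DONSON had ratios of 1.20, 1.35, and 0.966, and GART 1.01, 0.936, and 0.882. Their part in the values of SON, and that of ELOB in SRRM2, was not tested. None of the 3 SR-related genes held a site of 6 or more bases for miR-1 or miR-122.

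Among the kinases, SRPK2 and CLK4 had the lowest ratios, and CLK1 was the highest with miR-1. SRPK2, a mainly cytoplasmic SR protein kinase, is at chr7:105110704-105399308 on the minus strand (ENSG00000135250), and it was at 0.235 FPKM in control RNA, 0.176 in miR-1, 0.217 in miR-122, and 0.172 in miR-124. The miR-1 and miR-124 libraries were low. The ratios were 0.751 (0.659 to 0.856) in miR-1, 0.925 (0.804 to 1.06) in miR-122, and 0.732 (0.633 to 0.847) in miR-124. Both calls of SRPK2 ended with the trend subtracted, at -0.15 on the log2 scale with miR-1 and with miR-124. With a pseudocount of 1 the values were -0.07 and -0.08. At 0.235 FPKM in control RNA no decrease could reach the limit under that setting, so it does not bear on these calls. SRPK2 holds 2 miR-1 sites of the 7mer-A1 class. KMT2E, a gene on the opposite strand that overlaps SRPK2 over 4316 bases, had ratios of 0.825, 0.750, and 0.707. Its part in the values of SRPK2 was not tested. SRPK1 was at 1.45, 1.37, 1.38, and 1.23 FPKM and was below control RNA beyond its interval with miR-124 (0.849, 0.767 to 0.939).

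CLK4 (chr5:178602664-178630615, minus strand), one of the nuclear kinases that also phosphorylate SR proteins, was at 0.713, 0.594, 0.541, and 0.492 FPKM, from 132, 157, 89, and 89 reads. Its ratio with miR-124 was 0.691 (0.522 to 0.911), the lowest of any member in that library. That call ended with a pseudocount of 1, at -0.20 on the log2 scale, and was barely past the limit with the trend subtracted (-0.323). Its ratio with miR-122 was 0.759 with an interval that reached 1.00, so that decrease, though past the limit, was within the counting error, and it ended with the trend subtracted (-0.30). CLK1 was at 4.001, 4.53, 3.86, and 3.90 FPKM, and its ratio with miR-1, 1.13 (0.980 to 1.31), was the highest of the members but had an interval that included 1. CLK2 was at 3.80, 3.41, 3.26, and 3.59 FPKM, with no interval that left 1. CLK3 was at 1.86, 1.86, 1.89, and 2.03 FPKM and was the highest member with miR-124, at 1.09 (0.973 to 1.23).

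**Figure D3:**
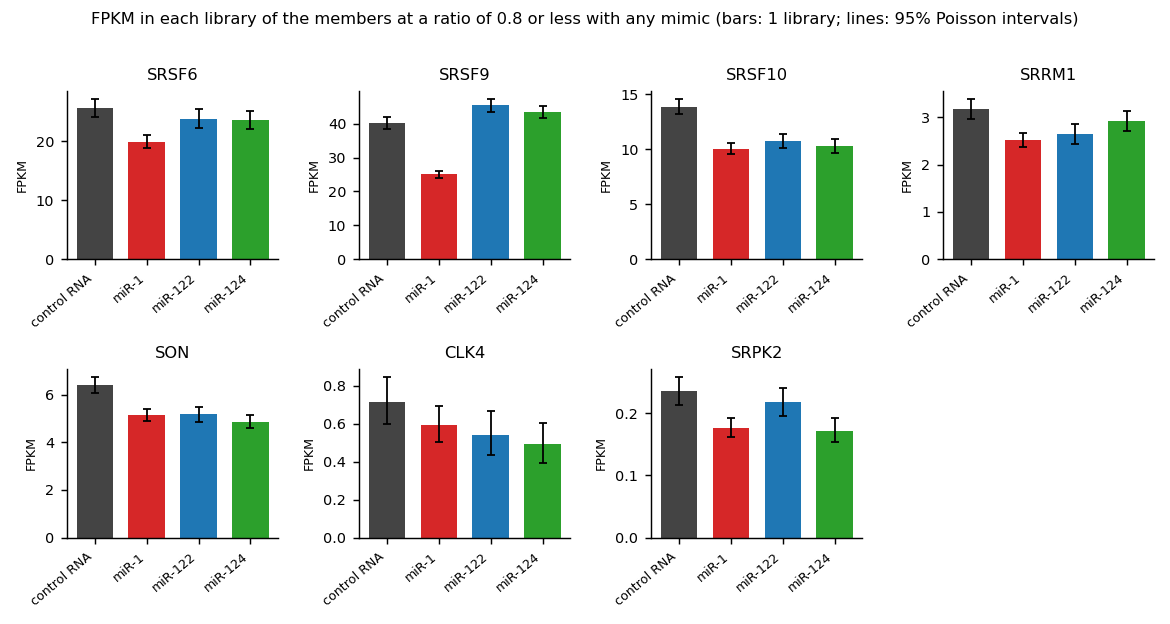
FPKM of the 7 genes that were at 0.8 or less of control RNA with any mimic, 1 bar a library, with lines for 95% Poisson intervals of the reads. SRSF9 is low with miR-1 alone, SRSF10 and SON are high with control RNA, and the interval of CLK4 is the widest relative to its level.

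No hnRNP gene was past the limit in any library, while 18.4%, 12.3%, and 16.3% of all genes were lower past it (miR-1, miR-122, and miR-124). Among the 7 hnRNPs of the A/B and D families, 4 (57.1%) were below control RNA in miR-1, 1 (14.3%) in miR-122, and 3 (42.9%) in miR-124. The shares of all genes were 57.1%, 53.6%, and 56.4%. The median log2 ratios of this list were -0.03, 0.12, and 0.01. HNRNPA1, a splicing silencer that shuttles to the cytoplasm, was at 91.7, 86.4, 101.9, and 96.8 FPKM, with ratios of 0.942 (0.905 to 0.980), 1.11 (1.06 to 1.16), and 1.06 (1.01 to 1.10). The miR-122 library was the highest for HNRNPA1 and the miR-1 library the lowest. HNRNPAB was at 53.9, 59.8, 59.8, and 55.6 FPKM, with ratios of 1.11 with miR-1 and with miR-122. HNRNPA2B1 went the other way with miR-122, at 0.919 (0.891 to 0.948), from 118, 118, 108, and 113 FPKM. HNRNPA0, an intronless gene, was at 48.6, 47.6, 50.1, and 52.0 FPKM and was 1.07 (1.02 to 1.13) times control RNA with miR-124. HNRNPD (AUF1), which binds AU-rich elements and directs mRNA decay, was at 19.1, 18.4, 20.8, and 19.3 FPKM. Its relative HNRNPDL was at 35.4, 38.3, 38.5, and 35.0 FPKM.

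The 4 genes of the F/H family, whose proteins bind G-rich tracts, were below control RNA in 2 cases with miR-1 and in 4 with either other mimic. Of all genes, 57.1%, 53.6%, and 56.4% were below it. The median log2 ratios of the family were -0.05, -0.06, and -0.13. HNRNPF was at 18.5 FPKM in control RNA, 16.9 in miR-1, 16.8 in miR-122, and 16.9 in miR-124, and each of its ratios, 0.913, 0.911, and 0.916, had an interval below 1. HNRNPH1 was at 19.9, 17.8, 18.9, and 18.2 FPKM. HNRNPH2 was at 12.5, 13.1, 12.2, and 11.3 FPKM and HNRNPH3 at 14.8, 15.1, 14.3, and 13.8, with intervals that included 1 for each mimic.

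Of the 9 other hnRNPs, 8 (88.9%) were below control RNA in miR-1, 7 (77.8%) in miR-122, and 6 (66.7%) in miR-124. The shares of all genes were 57.1%, 53.6%, and 56.4%. The median log2 ratios of these 9 were -0.16, -0.06, and -0.17. HNRNPU, a scaffold attachment factor that binds chromatin and RNA, was the lowest hnRNP with miR-1, at 0.840 (0.812 to 0.868), from 41.5, 34.8, 38.4, and 36.6 FPKM. Its ratios were 0.926 (0.893 to 0.960) with miR-122 and 0.883 (0.852 to 0.916) with miR-124. SYNCRIP (hnRNP Q) was the lowest with miR-124, at 0.807 (0.737 to 0.883), from 4.56, 4.09, 4.26, and 3.68 FPKM. HNRNPR, its paralog, was at 10.3, 8.91, 9.84, and 9.12 FPKM, with ratios of 0.867, 0.957, and 0.887. Both paralogs were nearest to control RNA with miR-122. HNRNPK was at 56.3, 50.6, 55.7, and 50.2 FPKM, with ratios of 0.898, 0.988, and 0.891. HNRNPC was at 11.7, 11.0, 11.2, and 11.2 FPKM. HNRNPM was the 1 gene of this list above control RNA beyond its interval with each mimic. Its FPKM was 11.1, 12.1, 12.6, and 11.8, with ratios of 1.09 (1.04 to 1.14), 1.14 (1.09 to 1.20), and 1.06 (1.01 to 1.11). HNRNPL and HNRNPLL, paralogs that repress exons through CA repeats, were at 11.5 and 1.19 FPKM with control RNA, and HNRNPL was at 0.874 (0.810 to 0.944) with miR-1 and HNRNPLL at 0.840 (0.712 to 0.990) with miR-124. HNRNPUL1 was at 13.4, 12.3, 13.8, and 13.8 FPKM, with a ratio of 0.921 (0.884 to 0.960) with miR-1.

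With miR-1, the 22 SR proteins, SR-related proteins, and kinases had a median log2 ratio of -0.16, with 5 of them lower past the limit. The 20 hnRNPs had -0.09, with none past it, and of all genes 18.4% were lower past it. The hnRNPs also had more reads, a median of 2798 in control RNA against 1071 for the 22 others. With miR-122 the medians were -0.11 and -0.04, and with miR-124 -0.10 and -0.08. No test of the difference between the lists was made.

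Members with and without a miR-1 site were then compared with all genes of the same class. Over all genes tested with a 3′ UTR, the median log2 ratio with miR-1 was -0.26 for an 8mer, -0.18 for a 7mer-m8, -0.15 for a 7mer-A1, -0.10 for a 6mer, and 0.00 with no site. A 7mer or 8mer was held by 11 of 42 members (26.2%) and by 25.0% of genes. The median of these 11 members was -0.16, and that of the 25 members with no site was -0.08. Of the 4 members with an 8mer, SRSF9 alone was lower past the limit, against 42.5% of the genes with an 8mer. HNRNPU, TRA2B, and HNRNPA3 were at 0.840, 0.893, and 0.927 (0.883 to 0.973). HNRNPA3 also holds a second site, of the 7mer-m8 class, and the order of these 3 genes depends on how reads of HNRNPA3 and its pseudogenes are split, as given below. SRSF10 and SRRM1, with no site, were lower past the limit all the same, as were 12.5% of the genes with no site.

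For miR-122, a 7mer or 8mer was held by 6 of 42 members (14.3%), against 26.4% of genes. The median log2 ratio with miR-122 was -0.15 for the 412 genes with an 8mer, and 28.6% of them were lower past the limit. None of the 3 members with an 8mer was. SRSF7 was at 0.973 (0.902 to 1.05), CLK3 at 1.02 (0.903 to 1.15), and HNRNPU at 0.926 (0.893 to 0.960). CLK3 held 4 sites of 7 or 8 bases in a 3′ UTR annotated at 10287 bases, and its ratio was not below 1. That 3′ UTR is longer than the whole canonical transcript of CLK3, at 1854 bases, so it belongs to another annotated transcript. How much of the CLK3 mRNA in these cells carries the sites was not tested. EDC3, on the opposite strand, overlaps CLK3 over 14857 bases, and its share of the CLK3 value was not tested.

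The members were described when they were chosen as often regulated by poison exons, so the share with annotated NMD transcripts partly restates the choice. At least 1 transcript annotated as bound for NMD was listed for 36 of 42 members (85.7%), against 48.4% of the 11214 protein-coding genes tested. A retained-intron transcript was listed for 35 (83.3%), against 62.0%. HNRNPA2B1 had 35 NMD transcripts and HNRNPA1 had 18. Members had a median of 14.5 annotated transcripts against 8 for all protein-coding genes, so they had more chances to be listed with one. The 3′ UTRs of the members were poor in G and C, with a median of 34.6% against 42.7%.

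The ratios of all genes moved with this base composition. Across protein-coding genes tested, Spearman's rho between the log2 ratio and the GC content of the 3′ UTR was 0.24 in miR-1, 0.36 in miR-122, and 0.62 in miR-124. It was 0.06, 0.13, and 0.36 across the 42 members, and the lists within them differed. Across the 20 hnRNPs rho was 0.20, 0.63, and 0.73, and across the 22 SR, SR-related, and kinase genes it was 0.06, -0.15, and 0.13. Each set shares its libraries and the control, and genes are not replicates. A cubic trend with 3′ UTR GC and length, gene span, and reads, fitted to 11190 genes, passed through a median of -0.04, -0.08, and -0.16 at the members. With the trend subtracted, the members lower past the limit with miR-1 were SRSF9, SRSF10, and SRRM2, so 2 of the 5 earlier ones remained. With miR-122 SRRM2 alone was past it, and neither of the 2 earlier ones. With miR-124 CLK4 alone remained of 4, at -0.323 on the log2 scale, which is barely past the limit of 0.322. SRSF9 was at -0.75 with miR-1 on the log2 scale after this step.

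Reads were also assigned to pseudogenes of some hnRNPs, and whether these reads came from the parent gene was not tested. Pseudogenes were listed for 24 members, 143 in all, and 74 were those of HNRNPA1. Reads given to HNRNPA1 pseudogenes amounted to 56.2% of those of HNRNPA1 in control RNA, 47.2% in miR-1, 50.3% in miR-122, and 49.5% in miR-124. The pseudogenes had a ratio of 0.792 (0.749 to 0.837) with miR-1, below that of the gene itself. When their reads were added to the gene, the ratios of HNRNPA1 were 0.888, 1.07, and 1.01. For HNRNPA3 the pseudogene reads were 29.9%, 22.03%, 22.8%, and 26.2% of the gene's own, and the ratios of the sum were 0.870, 1.00, and 0.911. The values of both genes are uncertain by how reads were split, and with the sum HNRNPA3 lay below TRA2B with miR-1. An annotated gene on the opposite strand with at least 10% of their reads overlapped 15 of the 42 members.

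Other genes of splicing and NMD, 94 in 5 lists of which 92 were tested, were set beside the members. With miR-1, 10 were lower and 5 higher past the limit, with miR-122 8 and 2, and with miR-124 11 and 2. Of all genes, 18.4%, 12.3%, and 16.3% were lower and 7.39%, 7.91%, and 10.3% higher. Each count out of the 92 was below that share. The median log2 ratios of the 92 were 0.05, 0.00, and -0.04. The Sm proteins, which form the core of the spliceosomal snRNPs, were above control RNA with miR-1 in 7 of 7 genes, with a median of 0.27 on the log2 scale, against -0.16 for the SR proteins in the same library. Of these 7 genes, 6 had intervals above 1 (15.5% of all genes), and SNRPE, at 1.28 (1.15 to 1.42), was past the limit. With miR-122 and miR-124 the Sm medians were 0.03 and -0.02, and SNRPB was at 1.31 (1.24 to 1.37) with miR-124.

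SMG1, the kinase that phosphorylates UPF1 in NMD, was the lowest or second lowest of the 92 with each mimic. It was at 1.53 FPKM in control RNA, 0.967 in miR-1, 0.862 in miR-122, and 0.974 in miR-124, with ratios of 0.633 (0.583 to 0.686), 0.564 (0.511 to 0.622), and 0.638 (0.582 to 0.698). The control RNA library was the high one. DDX17, an RNA helicase with a role in splicing, was the lowest with miR-1, at 0.618 (0.589 to 0.648). MBNL2, a muscleblind splicing regulator, was at 0.570 (0.424 to 0.761) with miR-122 and 0.676 (0.516 to 0.882) with miR-124. At the upper end, PHF5A (a U2 snRNP protein) and MAGOH (an exon junction protein) were both at 1.33 with miR-1. PRPF31 (a tri-snRNP protein) and RBM10 were at 1.33 and 1.28 with miR-122, and PRPF31 was at 0.33 on the log2 scale with miR-124.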

How the data were processed

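mRNA libraries (1 for each of 4 conditions, single-end reads) were made with a kit that is not stated to mark strand. Per the submitters' processing notes, bases were called with CASAVA 1.8 and the trimmed reads were mapped with HISAT2 2.0.0 on GRCh38. The authors deposited 1 FPKM value a gene and library, and treated values above 0.004 as detected. The counting program and annotation are not given in the sources used here.

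The value of 1 read was recovered in each library from the commonest product of FPKM and gene span, and each gene's length as the number that makes its reads whole, within 0.001, in all 4 libraries. This succeeded for 32158 of 32358 genes above 0 (99.4%). For 17 members the smallest such length was used, where the count may be a whole fraction of the true one. Lengths include introns. Depth was 5887055 to 9452232 reads.

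Ratios had no pseudocount and were limited to genes with at least 200 reads over the 4 libraries. Intervals were Clopper-Pearson, of the share of reads, rescaled by depth. Steps were tested on simulated data. The members and lists were chosen with earlier results of these data known. Named were, for each mimic, the 3 lowest and 3 highest members, members past the limit, those with an 8mer, and the 2 lowest and 2 highest genes of the other lists. HNRNPA3 and most genes of the other lists were given without their FPKM. SNRPE and further members were described within their lists. Other settings were a pseudocount of 1 or 0.1, a reference of the other 2 mimics averaged, centring, size factors, a subtracted trend, and a minimum of 200 reads, which left out no member. Genes and 3′ UTRs were from GENCODE release 44. Python 3.11.15 was used with pandas 2.3.3, scipy 1.17.1, matplotlib 3.10.9, and numpy 2.4.6.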

Additional observations from a re-analysis of the deposited data

How the results depend on the processing

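No paired analysis was possible because there is 1 library a condition, and no replicate can be left out for the same reason. A minimum of 200 reads left out no member and changed nothing. Of 54 medians and counts under the other 6 settings, 39 stayed near the reported ones. This tally includes the counts of members higher past the limit, which were 0 and nearly all stayed 0. It also counts as near the miR-122 median that changed sign with the trend subtracted. It therefore does not show that the calls of lower members were stable, and most of their counts moved. Members lower past the limit numbered 5, 2, and 4 in miR-1, miR-122, and miR-124. With a pseudocount of 1 they were 3, 1, and 2, all among the earlier ones, and against the mean of the other 2 mimics 1 (SRSF9), 0, and 0. With the trend subtracted they were 3, 1, and 1, of which 2, 0, and 1 were among the earlier ones, since SRRM2 was newly past the limit with miR-1 and miR-122. With miR-1 there were also 3 after centring and 3 with size factors (SRSF9, SRSF10, and SRPK2 in both).

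With the other mimics as reference, miR-1 had a median log2 ratio of -0.020 and miR-122 one of 0.047, 1 member (SRSF9) was higher past the limit with miR-122, and SRSF10 reversed with miR-122, to 0.080. With the trend subtracted, the median turned to 0.0080 with miR-122 and to 0.056 with miR-124. The cause was not tested. SRSF9 with miR-1 was between -0.83 and -0.63 under the 6 settings, each past the limit. Counts of reads limit CLK4 and SRSF12 most.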
